A study of Papio anubis with 12 samples.

Results

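The comparison set the moderate-DHA formula L apart from both of the other formulas. For each probe set it took the mean of the 4 arrays from animals fed formula L minus the average of the mean of the 4 arrays of formula C and the mean of the 4 arrays of formula L3. All 12 arrays of the series entered it, 4 on one side and 8 on the other, and the labels alone placed them. A probe set whose level at the moderate dose lay above or below the levels at both the zero and the high dose gives a large value, and one that changed steadily from C over L to L3 gives a value near 0. The animals were baboon neonates (Papio anubis) born spontaneously and randomized to a formula for 12 weeks. Formula C held neither docosahexaenoic acid (DHA) nor arachidonic acid (ARA), L held 0.33% DHA with 0.67% ARA, and L3 held 1.00% DHA with the same 0.67% ARA. Age at necropsy was 83 to 85 days in C, 84 to 87 days in L and 83 to 84 days in L3. The C group had 2 males, L had 1 and L3 had 0, so that 1 of the 4 L animals and 2 of the 8 others were male. Each array held total RNA of the precentral gyrus, the motor cortex, of 1 animal, hybridized to an Affymetrix array whose probes were designed on human transcripts.

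DHA is an omega-3 fatty acid that builds up in the phospholipids of neuronal membranes around birth, and ARA is its omega-6 counterpart. Phospholipases release both from membranes, and cyclooxygenases and lipoxygenases turn ARA into signalling lipids, the eicosanoids. Both fatty acids also bind nuclear receptors such as the PPAR and RXR families, through which they can act on the transcription of lipid genes.

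The deposited MAS5 signals had the same trimmed mean on every array (250.01 to 250.02). L replicate 1 stood apart from every other array, with correlations of log2 values of 0.684 to 0.746 with the other 11, whereas L replicates 2, 3 and 4 correlated with each other at 0.864 to 0.906. The spike-in controls, foreign transcripts added to the hybridization, had a mean log2 signal of 11.7 ± 0.99 under L, 12.0 ± 0.67 under C and 12.7 ± 1.32 under L3 (SD, n = 4 each). They were lower on 6 arrays (C replicates 3 and 4, L replicates 2, 3 and 4, and L3 replicate 4), so 3 of the 4 L arrays and 3 of the 8 others were among them. A fit over these 6 alone was chosen after the data were seen. It was read for the named probe sets and for up to 2 members of each gene list at an unadjusted p under 0.05. Its value is given where it moved theirs by over 1.5 times. For other genes described below it was not read. An exact permutation test of the 4 L arrays against the 8 others gave p = 0.295 for the spike-ins and p = 0.335 for the 3'/5' ratio of ACTB, a measure of RNA integrity. In every formula that ratio was highest on replicate 1 and lowest on replicate 4, and at each of the 4 replicate numbers the L array lay below the mean of C and L3, by log2 differences of −1.77 to −0.22. Markers of neurons (SNAP25, 15481.6 to 35236.8), oligodendrocytes (MBP, 2109.2 to 8860.1) and astrocytes (SLC1A2, 14206.9 to 28881.1) had high signals on all 12 arrays. COL1A1, a collagen of the meninges, ranged from 394 to 7462 with a log2 difference of −0.05 (SE 0.55), and the haemoglobin gene HBB had −0.44 (SE 0.21). Male and female labels matched the Y-linked RPS4Y1 signal on all 12 arrays.

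No probe set separated L from the mean of C and L3 after correction for multiple testing. Among 54613 probe sets, 0 had an adjusted p under 0.05 in limma (0%), and the smallest adjusted p was 0.159. With the variance of each probe set moderated without a trend on its level, 2 passed, and with the methods' one-way variance model 2 passed, and these were CEP76 and ZDHHC8BP in both. At an unadjusted p under 0.05, limma found 854 higher in L (1.56%) and 1076 lower in L (1.97%), 1930 together, where 5% of the probe sets tested are 2731. Of the 1930, 44.2% were higher in L, against 30.2% when the deposited signals were normalized no further and 53.8% after centring each array on its median, so the excess of lower calls depended on the scaling. The median size of the difference was 0.275 on the log2 scale, where the median SE was 0.44. A difference of 2-fold or more was seen for 2012 probe sets (3.68%).

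All 4 L arrays lay above all 8 others for 56 probe sets (0.103%) and below all 8 for 95 (0.174%). Of these 151, 128 were at an unadjusted p under 0.05. Were the labels without effect, a probe set would lie apart on either side with a probability of 0.00404. The 151 are a smaller share of all probe sets tested than that, so their number did not exceed the chance level. Without L replicate 1 the counts were 290 above and 403 below, with 3 arrays then set against 8. Where the probe set names a single gene and its brighter side had a mean signal of 100 or more, 35 lay above and 38 below. All probe sets that meet these conditions were not counted, so no share stands beside 35 and 38. The 12 of either side with the smallest p from limma are described next. The choice required their L arrays to lie apart, so their exact permutation p was the smallest that 4 against 8 can give (0.00404) and it is no further evidence. Of these 24, CEP76 had an adjusted p of 0.159, ZDHHC8BP one of 0.480 and the other 22 one of 0.999. For 17 of the 24 the L arrays also lay apart in the deposited signals. For the other 7 (PTPN11, CENPBD2P, ABI3BP, MALL, EVI5L, ARMC7 and TSPAN16) they did so only after quantile normalization.

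**Figure D1:**
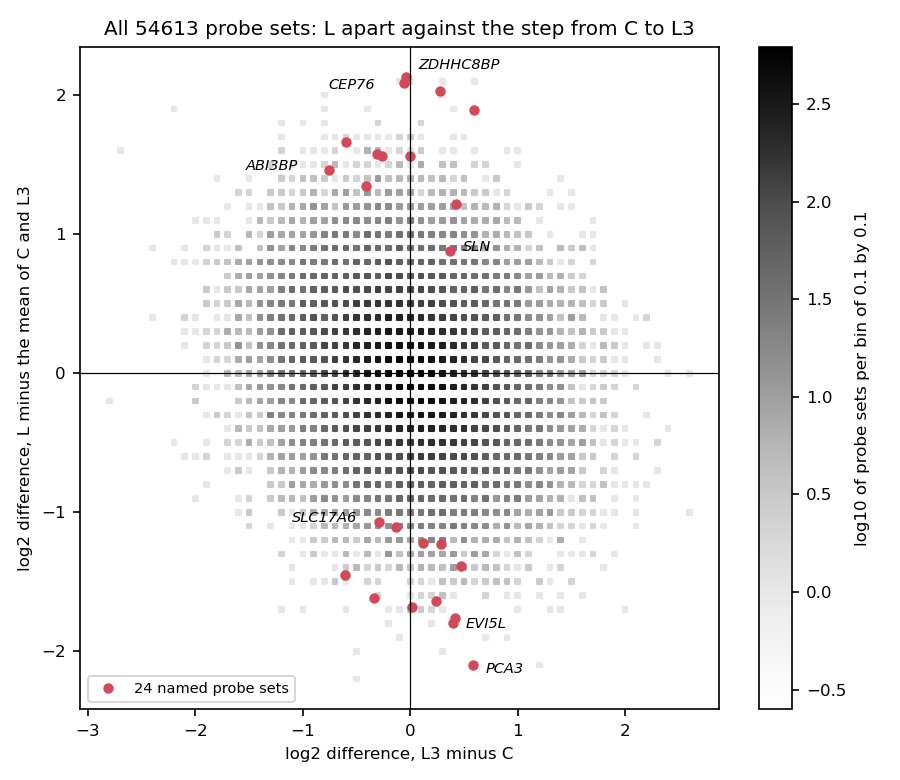
Log2 difference of L minus the mean of C and L3 (vertical axis) against the log2 difference of L3 minus C (horizontal axis) for all 54613 probe sets, drawn as bins of 0.1 by 0.1 with darker bins holding more probe sets on a log scale. The 24 named probe sets (red) lie between −0.76 and 0.59 on the horizontal axis and toward the upper and lower ends of the vertical axis.

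For the 24 the C and L3 arrays lay close to each other, as the choice favours. The log2 difference of L3 minus C lay between −0.76 and 0.59, with a smallest unadjusted p of 0.144 from limma. The size of the L minus C difference was 1.07 to 2.19, and that of L minus L3 was 0.69 to 2.39. Both differences were at an unadjusted p under 0.05 from limma in all 24. The choice favours this too, so it is no further evidence.

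Among the genes with higher L signals, PTH2R is the receptor of a hypothalamic peptide related to parathyroid hormone and is one of the genes that the study itself named. The study reported PTH2R as increased in both DHA groups. Its signals were 336, 178, 172 and 149.5 under L, 14.3, 35.7, 101 and 16.7 under C, and 28.5, 34.9, 35.8 and 119 under L3. The lowest L array lay above the highest of the others, and C replicate 3 and L3 replicate 4 lay above the rest of their groups. The log2 difference was 2.03 (SE 0.51), and it was 1.01 over the 6 arrays of lower spike-in signal. HTR4 encodes a serotonin receptor that raises cyclic AMP. HTR4 signals were 333, 467, 356 and 331 under L, 149.5, 127, 61.9 and 180 under C, and 261, 76.7, 291 and 184 under L3. L arrays lay above all the others, with L3 replicate 3 the nearest, and the log2 difference was 1.22 (SE 0.38). PTPN11 encodes SHP2, a tyrosine phosphatase of growth factor signalling. Its signals were 345, 304, 317 and 407 under L, 50.4, 142, 25.3 and 72.4 under C, and 39.9, 41.3, 318 and 208 under L3. The L3 group was split, with replicates 3 and 4 near the L arrays and replicates 1 and 2 near the C arrays. For PTPN11 the log2 difference was 1.89 (SE 0.52).

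A lipid enzyme was also among them. ALOX15B encodes an arachidonate lipoxygenase, which adds oxygen to free ARA. Its signals were 403, 303, 520 and 280 under L, 226, 102, 205 and 121 under C, and 86.5, 221, 52.6 and 207 under L3, and the L arrays did not overlap with the others. The log2 difference was 1.35 (SE 0.42), and 0.84 over the 6 arrays of lower spike-in signal. The other lipoxygenases, measured in the list of eicosanoid genes, were not at an unadjusted p under 0.05, with log2 differences of −0.39 (SE 0.36) for ALOX5, 0.34 (SE 0.51) for ALOX12 and 0.23 (SE 0.27) for ALOX15.

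ID3 encodes a protein that binds helix-loop-helix transcription factors and keeps them off DNA. Its signals were 290.2, 248, 499.6 and 246 under L, 77.1, 93.3, 131 and 117 under C, and 119, 81.5, 75.5 and 79.5 under L3. Every L array had more than any of the other 8, L replicate 3 the most, and the log2 difference was 1.58 (SE 0.37). SLN encodes sarcolipin, a small peptide that inhibits the calcium pump of the sarcoplasmic reticulum and is best known from muscle. SLN signals were 781, 1165, 1141 and 1426 under L, 530.1, 367, 559 and 600.4 under C, and 643, 658, 585 and 599 under L3. This probe set had the brightest signal of the 12, with C replicate 2 below the rest of its group, and a log2 difference of 0.88 (SE 0.21) that stayed between 0.80 and 1.08 in all other settings. ICAM1 encodes an adhesion molecule of endothelium that binds leukocytes. The signals of ICAM1 were 542, 279.6, 311 and 405 under L, 84.5, 129, 252 and 109 under C, and 97, 40.1, 237 and 172 under L3. C replicate 3 and L3 replicate 3 came close to the lowest L array, and the log2 difference was 1.56 (SE 0.44), or 0.83 over the 6 arrays of lower spike-in signal. ABI3BP, an extracellular matrix protein, had signals of 193 ± 96.9 under L, 89.2 ± 48.5 under C and 49.3 ± 29.8 under L3 (SD, n = 4 each), and the log2 difference was 1.46 (SE 0.43).

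The largest differences among the 12 higher probe sets were those of ZDHHC8BP and CEP76. CEP76 encodes a centrosomal protein that limits the duplication of centrioles. Its signals were 141, 134, 80.5 and 107 under L, 14.6, 13.4, 18.8 and 18.1 under C, and 15.8, 14.3, 18.1 and 18.5 under L3. The C and L3 arrays lay near the pseudocount of 16, which keeps the log2 difference of 2.09 (SE 0.30) smaller than it would be with a lower pseudocount (2.87 with 1). ZDHHC8BP is a pseudogene related to the palmitoyltransferase ZDHHC8. Its signals were 299, 169, 129 and 138 under L, 35.2, 34.7, 24 and 28.6 under C, and 23.5, 41, 30.7 and 28 under L3, and the log2 difference was 2.13 (SE 0.36). CENPBD2P, another pseudogene, had signals of 189 ± 87.8 under L, 52.9 ± 11 under C and 61.5 ± 32.9 under L3 (SD, n = 4 each), and the log2 difference was 1.56 (SE 0.43). ZNF419, a zinc finger gene, had signals of 283 ± 105 under L, 103 ± 38.6 under C and 75.4 ± 55.6 under L3 (SD, n = 4 each), and the log2 difference was 1.66 (SE 0.47), or 0.67 over the 6 arrays of lower spike-in signal. The study also named ZNF419, as repressed in L3.

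**Figure D2:**
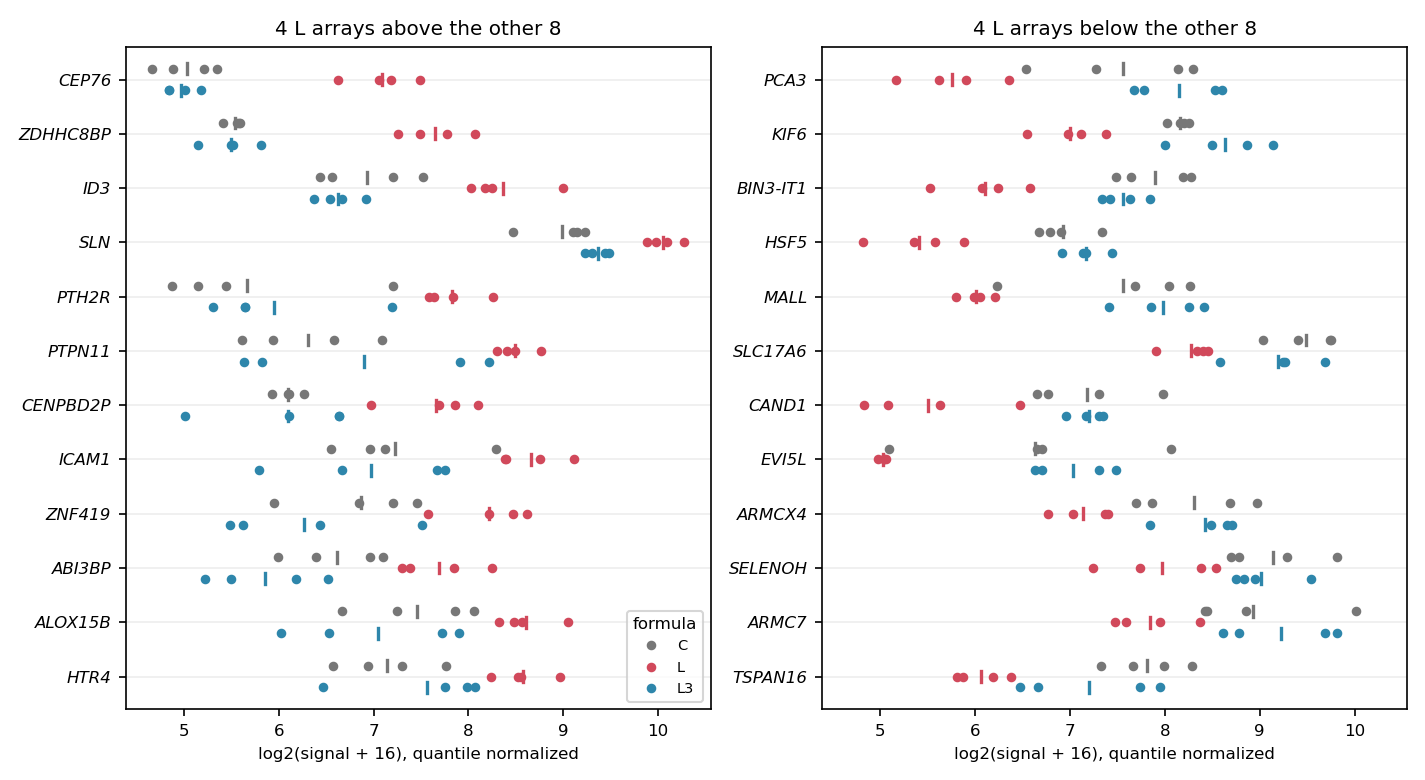
Log2(signal + 16) after quantile normalization for the 24 named probe sets, 12 with the L arrays above the other 8 (left) and 12 below (right). Each point is an array, coloured by formula, and the short bars are group means. The choice of the probe sets requires the L points to lie apart, and the C and L3 points of most genes share a range.

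Among the genes with lower L signals, SLC17A6 is the one with a known place in cortical neurons. It encodes the vesicular glutamate transporter VGLUT2, which loads glutamate into synaptic vesicles and in cortex is high during development. The study named it too, so its choice there is not independent of these arrays. Its signals were 268, 297, 299 and 298 under L, 818, 509, 975 and 691 under C, and 574, 384, 574 and 861 under L3. The L arrays lay between 268 and 299, all below the lowest of the others, L3 replicate 2. Its log2 difference was −1.07 (SE 0.26), and it was −1.24 over the 6 arrays of lower spike-in signal, −0.94 without L replicate 1 and −1.08 in females only. The main cortical transporter SLC17A7 (VGLUT1) had a log2 difference of 0.47 (SE 0.54) in the other direction, not at an unadjusted p under 0.05.

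Of the other genes with lower L signals, KIF6 encodes a kinesin, a motor that moves along microtubules. KIF6 signals were 91.5, 89.8, 142 and 102 under L, 289, 305, 244 and 223 under C, and 265, 534, 376 and 449.5 under L3. All L arrays had at most 142 and all others at least 223, and the log2 difference was −1.39 (SE 0.32). CAND1 encodes a factor that exchanges the substrate receptors of cullin ubiquitin ligases. Its probe set had signals of 32.6 ± 24 under L, 143 ± 93.2 under C and 147 ± 34.2 under L3 (SD, n = 4 each), and the log2 difference was −1.68 (SE 0.44). EVI5L encodes a GTPase-activating protein of Rab GTPases, which switches them off. It had signals of 15.8 ± 5.05 under L, 116 ± 118 under C and 134 ± 54.9 under L3 (SD, n = 4 each), and the log2 difference was −1.80 (SE 0.48). C replicate 4 had 15.4 and lay among the L arrays in the deposited signals.

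SELENOH encodes a nuclear selenoprotein of redox defence. Its signals were 165, 163, 309 and 336 under L, 595, 786, 395 and 388 under C, and 451, 475, 666 and 409 under L3. L replicates 1 and 2 had the lowest values, and the log2 difference was −1.11 (SE 0.32), or −0.53 over the 6 arrays of lower spike-in signal. HSF5 belongs to the heat shock factors. Signals of HSF5 were 17.2, 20.4, 29.9 and 35.6 under L, 154, 122, 66.7 and 85 under C, and 145, 142, 129 and 145 under L3, and the log2 difference was −1.64 (SE 0.38). MALL, a relative of the myelin and lymphocyte protein MAL that sits in membrane rafts, had signals of 46.9 ± 7.93 under L, 199.7 ± 108 under C and 263 ± 90.3 under L3 (SD, n = 4 each), and the log2 difference was −1.76 (SE 0.43). C replicate 3 had 46.6, inside the range of the L arrays. TSPAN16, a tetraspanin of the cell surface, had signals of 49.6 ± 15.7 under L, 212 ± 84.4 under C and 163 ± 96.3 under L3 (SD, n = 4 each), and the log2 difference was −1.45 (SE 0.42).

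The remaining lower probe sets detect noncoding transcripts or armadillo-repeat genes. PCA3 is a noncoding RNA known from prostate. Its signals were 26.2, 54.1, 31.1 and 36.7 under L, 276, 332, 60.3 and 124 under C, and 392, 232, 382 and 173 under L3. L arrays were at most 54.1, C replicate 3 came close with 60.3, and the log2 difference was −2.10 (SE 0.44), or −1.33 over the 6 arrays of lower spike-in signal. BIN3-IT1 is a transcript from an intron of BIN3, with signals of 38.7, 42.2, 77.3 and 50.6 under L, 304, 309.7, 144 and 146 under C, and 205, 179, 253 and 132 under L3, and the log2 difference was −1.62 (SE 0.37). ARMCX4 had signals of 119 ± 20.3 under L, 311 ± 163 under C and 348 ± 103 under L3 (SD, n = 4 each), and the log2 difference was −1.22 (SE 0.34), or −0.63 over the 6 arrays of lower spike-in signal. For ARMC7 the signals were 215 ± 104 under L, 481 ± 273 under C and 582 ± 216 under L3 (SD, n = 4 each) and the log2 difference was −1.23 (SE 0.35).

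Other probe sets of the same genes seldom showed the same difference. Of the 24 genes, 16 have another probe set on the array, 42 in all. Of these 42, 20 had the sign of the named one, 1 was at an unadjusted p under 0.05 in the same direction and 0 in the other. The 1 was a second probe set of KIF6, with a log2 difference of −0.69 (SE 0.31). Its mean signals were 15.5 under L, 21.0 under L3 and 64.3 under C, and its log2 difference of L minus L3 was −0.12 (SE 0.36), so it differed mainly from C. For ICAM1 both other probe sets were higher in L, with 0.49 and 0.39, and for ALOX15B the other had 0.78 (SE 0.50). For CEP76 the other had 0.31, for ZNF419 −0.20 and for HTR4 −0.10 and −0.08. Of the 5 others of PTPN11 4 were higher in L, but the brightest, with mean signals of 3209 to 3649, had 0.06 (SE 0.20). Of the 5 others of SELENOH 1 was lower in L, and of the 6 others of CAND1 3 were lower. The remaining probe sets of KIF6 were higher in L, with 0.17, 0.79 and 0.21. SLC17A6, SLN, ID3, PTH2R, MALL, HSF5, BIN3-IT1 and ZDHHC8BP have a single probe set each, so no second reading exists for them here.

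**Figure D3:**
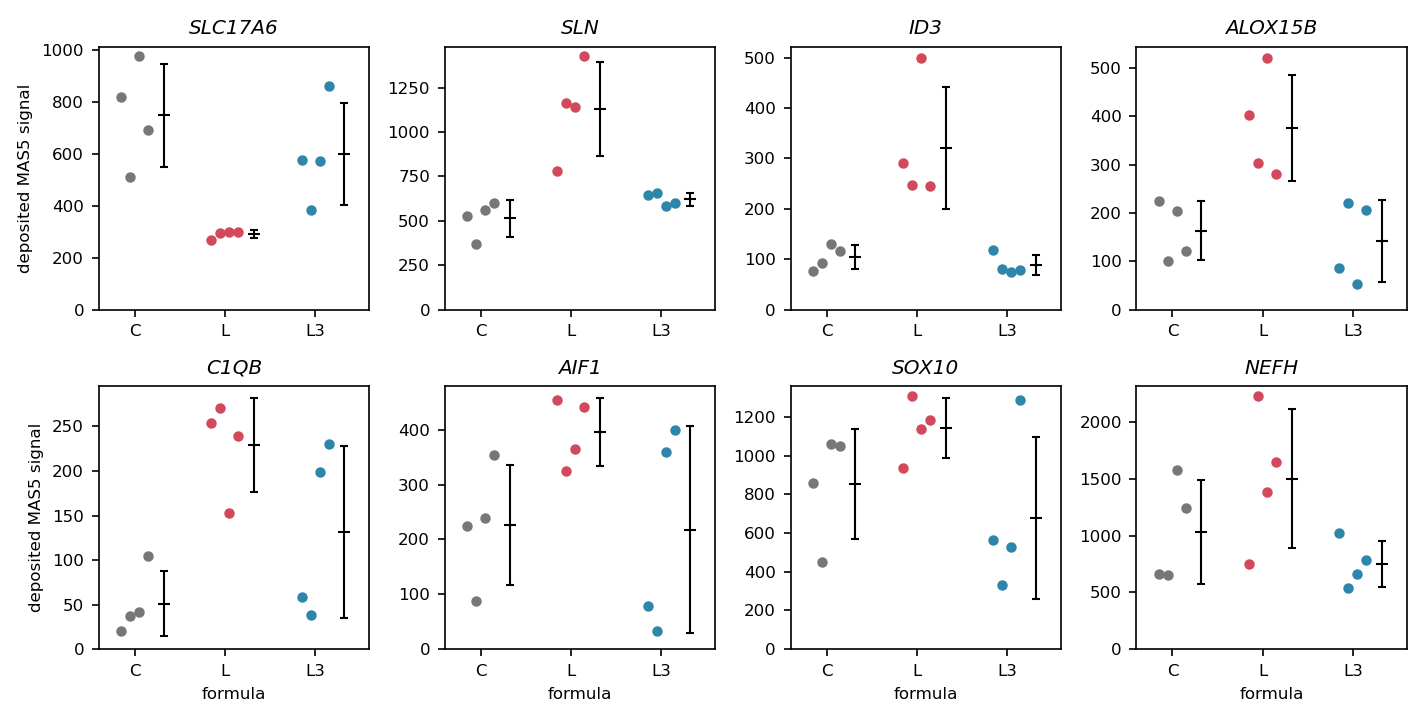
Deposited MAS5 signal of 8 genes on each array, by formula, with means and SDs of 4 arrays in black at the side of the points and axes that start at 0. SLC17A6, SLN, ID3 and ALOX15B have L arrays apart from the other 8, whereas for C1QB, AIF1, SOX10 and NEFH at least 1 array of C or L3 reaches into the range of L.

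Gene lists for lipid, energy, stress, neuron and cell type genes showed few members that set L apart. Counting the brightest probe set of each gene, 271 of 19775 genes were higher in L at an unadjusted p under 0.05 (1.37%) and 388 lower (1.96%). In the 35 lists not taken from the study, 8 of 746 measured genes were higher (1.07%) and 13 lower (1.74%), both near those shares, and 0 had an adjusted p under 0.05 from limma. Of the 21 list members at an unadjusted p under 0.05 that are described below, SLC17A6 and PTH2R aside, 5 stayed under it over the 6 arrays of lower spike-in signal, 3 with age as a covariate, 14 with the ACTB ratio as a covariate, 11 after centring each array on its median and 9 without L replicate 1. Most lists had a median near 0, as had all genes with their brightest probe set (−0.01).

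Enzymes that make long-chain fatty acids had the highest median of these lists. Of 15 measured desaturases and elongases 12 were higher in L and 3 lower. In limma 0 were at an unadjusted p under 0.05 in either direction. The median log2 difference was 0.25, and it was 0.40 without L replicate 1 and 0.12 without L replicate 2. FADS2, the desaturase that takes the first step from dietary precursors towards DHA and ARA, had signals of 191 ± 90.7 under L, 125 ± 89.3 under C and 96.1 ± 96.8 under L3 (SD, n = 4 each), and the log2 difference was 0.94 (SE 0.54). ELOVL4 and ELOVL7, which lengthen fatty acids, had log2 differences of 0.83 (SE 0.55) and 0.74 (SE 0.56), and SCD, which makes monounsaturated fatty acids, of 0.40 (SE 0.25). Each of these was within 2 SE of 0.

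Genes that release or use fatty acids went both ways. Among 16 phospholipases A2 and related lipases, 1 lay higher in L and 1 lay lower, each at an unadjusted p under 0.05. PLA2G2A, a secreted phospholipase A2, had signals of 582, 399, 335 and 244 under L, 207, 212, 234 and 256 under C, and 323, 198, 355 and 94.5 under L3. Of the L arrays all but replicate 4 were above the C arrays, L3 replicates 1 and 3 lay within the L range, and the log2 difference was 0.81 (SE 0.35). PNPLA2, the triglyceride lipase of lipid droplets, had signals of 480.2, 955, 874 and 1067 under L, 1582, 893, 638 and 977 under C, and 1382, 1915, 1057 and 1552 under L3, and the log2 difference was −0.73 (SE 0.27), or −0.22 over the 6 arrays of lower spike-in signal and −0.42 after centring each array on its median. The L arrays overlapped with the C arrays, and of the L3 arrays replicate 3 alone reached into their range. PNPLA2 had L minus C of −0.40 (SE 0.31), L minus L3 of −1.06 (SE 0.31) and L3 minus C of 0.67 (SE 0.31), so L differed mainly from L3. The 22 eicosanoid genes had 14 lower in L and 0 at an unadjusted p under 0.05. Their median was −0.18, and it was −0.26 with no further normalization and 0 without L replicate 3. Cyclooxygenases PTGS1 and PTGS2 had log2 differences of −0.18 (SE 0.36) and 0.29 (SE 0.51). Among 22 sphingolipid genes GALC, the lysosomal enzyme that breaks down the myelin lipid galactosylceramide, was higher, at 0.71 (SE 0.33), or 0.37 over the 6 arrays of lower spike-in signal. GALC had L minus C of 0.53 (SE 0.38) and L minus L3 of 0.89 (SE 0.38). Among 22 cholesterol genes, which had a median of 0.16 with 13 higher, INSIG2, which holds back sterol synthesis, was lower, with signals of 758, 629, 275 and 299.8 under L, 1113, 705, 661 and 759 under C, and 1228, 529, 948 and 629 under L3, and the log2 difference was −0.77 (SE 0.34). L replicates 3 and 4 were the lowest there, and L replicates 1 and 2 lay among the others. With age as a covariate the value was −0.41, and −0.50 with the ACTB ratio as one. In the lists of fatty acid uptake (15 genes), phospholipid synthesis (34), apolipoproteins (13), mitochondrial (22) and peroxisomal (13) oxidation and lipid-sensing nuclear receptors (14), 0 members were at an unadjusted p under 0.05, with medians of −0.10 to 0.06.

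Energy and housekeeping genes showed little. Glycolysis genes were higher in L for 15 of 19, with a median of 0.12 and 0 at an unadjusted p under 0.05. The neuronal enolase ENO2 had the smallest p of them, with a log2 difference of 0.37 (SE 0.19). Of 54 respiratory chain genes only NDUFB7, a subunit of complex I, was at an unadjusted p under 0.05, with signals of 124 ± 65.7 under L, 266 ± 107 under C and 275 ± 98.5 under L3 (SD, n = 4 each), and the log2 difference was −1.01 (SE 0.40). Of 25 proteasome genes it was PSMD4, a ubiquitin receptor of the proteasome, at −0.55 (SE 0.24). PSMD4 had L minus C of −0.65 (SE 0.27) and L minus L3 of −0.45 (SE 0.27), the latter not at an unadjusted p under 0.05. Over the 6 arrays of lower spike-in signal NDUFB7 had −0.36 and PSMD4 −0.14, and without L replicate 1 they had −0.64 and −0.28. After centring each array on its median PSMD4 had −0.23. Cytosolic ribosomal proteins (40), heat shock (22), immediate early (18), antioxidant (25) and apoptosis (24) genes had 0 members at an unadjusted p under 0.05 and medians of −0.05 to 0.06. Among 12 iron genes SLC25A28, a mitochondrial iron carrier, was lower in L, with signals of 273, 233, 219 and 223 under L, 424, 397, 628 and 353 under C, and 625, 473, 639 and 231 under L3. L3 replicate 4 lay among the L arrays, and the log2 difference was −0.86 (SE 0.30), or −0.43 over the 6 arrays of lower spike-in signal.

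Of 168 measured genes in the 7 neuronal lists, 7 were lower in L at an unadjusted p under 0.05 (4.17%, beside 1.96% of all genes) and 2 higher (1.19%, beside 1.37%). In the excitatory list (17 genes, 10 higher) SLC17A6 and CAMK2A were lower. The median of that list was 0.15, and it was −0.10 without L replicate 4 and 0.36 without L3 replicate 4. CAMK2A, the kinase of excitatory synapses, had signals of 4242 ± 1319 under L, 4879 ± 657 under C and 4729 ± 1149 under L3 (SD, n = 4 each), and the log2 difference was −0.35 (SE 0.16). AMPA receptor subunits lay on both sides, GRIA2 at −0.49 (SE 0.30) and GRIA4 at 0.83 (SE 0.47), and neither passed. GABRA2, a subunit of the GABA-A receptor, had signals of 889, 1600, 1087 and 1149 under L, 1718, 1500.3, 1572 and 1089.6 under C, and 1747, 2531, 1378 and 1576 under L3, and the log2 difference was −0.58 (SE 0.22). L replicate 2 lay among the C and L3 arrays, and C replicate 4 among the L arrays. NLGN3, a postsynaptic adhesion protein that binds neurexins, was at −0.76 (SE 0.35). The study named NLGN3 too, as downregulated in both supplement groups. NTRK3, the receptor of neurotrophin-3, was at −0.53 (SE 0.23), and KIF5C, the kinesin of axons, had signals of 14090 ± 3146 under L, 17830 ± 2870 under C and 17430 ± 2338 under L3 (SD, n = 4 each), and the log2 difference was −0.39 (SE 0.15). NEFH, the heavy neurofilament subunit, was higher, with signals of 749, 2231, 1388 and 1645 under L, 658, 657, 1575 and 1239 under C, and 1019, 542, 662 and 788 under L3, and the log2 difference was 0.61 (SE 0.26). L replicate 1 lay among the C and L3 arrays, and C replicate 3 lay within the range of the other L arrays. The guidance genes were split, with the axon repellent SEMA3A higher at 1.26 (SE 0.56) and SLIT2 lower at −0.49 (SE 0.21). In pairs, NLGN3 and SLIT2 were at an unadjusted p under 0.05 in limma against C alone. Their L minus L3 differences were −0.62 (SE 0.40) and −0.34 (SE 0.24). CAMK2A, GABRA2, KIF5C, NTRK3, NEFH and SEMA3A were under it against L3 alone. Their L minus C differences, in this order, were −0.26, −0.37, −0.29, −0.42, 0.50 and 1.03. The values of the contrast depended on the arrays and the scaling. Over the 6 arrays of lower spike-in signal SEMA3A had 0.12, GABRA2 −0.20, CAMK2A −0.21 and NTRK3 −0.26. With that signal as a covariate SEMA3A had 0.93, GABRA2 −0.43, CAMK2A −0.31 and NTRK3 −0.31. After centring each array on its median CAMK2A had −0.10, KIF5C −0.22, NTRK3 −0.32, SLIT2 −0.32 and GABRA2 −0.34, and with age as a covariate KIF5C had −0.19, NTRK3 −0.34, NEFH 0.40 and SEMA3A 0.70. Voltage-gated channels (26 genes) had 19 lower in L, a median of −0.09 (0.05 after centring each array on its median) and 0 at an unadjusted p under 0.05.

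Of 61 measured genes in the 3 glial lists, C1QB, AIF1 and SOX10 were higher in L at an unadjusted p under 0.05 (4.92%) and ALDH1L1 lower (1.64%). In bulk tissue, fewer cells of a type and less RNA per cell cannot be told apart. Of 18 microglia and complement genes 13 were higher in L, 2 of them at an unadjusted p under 0.05 (11.1%, beside 1.37% of all genes). The median of the 18 was 0.13, and it was 0.32 without L replicate 1 and −0.02 without L replicate 2. C1QB encodes a chain of complement C1q, which microglia make. Its signals were 254, 270.3, 153 and 239.6 under L, 20.6, 37.5, 41.8 and 104 under C, and 58.9, 38, 199 and 229.9 under L3. L arrays lay above all C arrays, and L3 replicates 3 and 4 lay among them, with a log2 difference of 1.56 (SE 0.52). AIF1 encodes the microglial calcium-binding protein IBA1. AIF1 signals were 454, 325, 365 and 441 under L, 224, 86.9, 239.6 and 354 under C, and 78.1, 33.2, 360.1 and 400 under L3. L3 replicates 1 and 2 and C replicate 2 were the lowest, L3 replicates 3 and 4 and C replicate 4 were within the L range, and the log2 difference was 1.16 (SE 0.54). Over the 6 arrays where the spike-in signal was lower C1QB had 0.68 and AIF1 0.10. With the spike-in signal as a covariate C1QB had 1.26 and AIF1 0.83, and whether that signal made the difference was not tested. The other microglial markers CSF1R and CX3CR1 had log2 differences of 0.59 (SE 0.51) and 0.26 (SE 0.31), and the other C1q chains C1QA and C1QC of 0.26 (SE 0.61) and 0.04 (SE 0.41).

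SOX10, the transcription factor of the oligodendrocyte lineage, had signals of 936, 1306, 1139 and 1187 under L, 857, 449, 1063 and 1048 under C, and 562, 329, 528 and 1286 under L3. C replicate 2 and L3 replicates 1, 2 and 3 were low, L3 replicate 4 was as high as the L arrays, and the log2 difference was 0.71 (SE 0.31), against 0.03 over the 6 arrays of lower spike-in signal. With the spike-in signal as a covariate SOX10 had 0.49. Its list of 24 myelin and oligodendrocyte genes had 15 higher, a median of 0.11 and SOX10 as the only one at an unadjusted p under 0.05. The myelin genes MBP and MOG had log2 differences of 0.21 (SE 0.28) and −0.33 (SE 0.37). ALDH1L1, a folate enzyme of astrocytes, had signals of 220.1, 133.2, 338 and 208 under L, 350.2, 452, 329 and 243 under C, and 421, 285, 467 and 363 under L3, and the log2 difference was −0.65 (SE 0.29). L replicate 3 lay among the C and L3 arrays, and the other L arrays were below all 8. Of 19 astrocyte genes 11 were lower in L, with a median of −0.07 that was 0.19 without L replicate 1, 0.09 with no further normalization and 0.21 after centring each array on its median. Among 22 genes of meninges and matrix TIMP3, an inhibitor of metalloproteinases that the study also named, was higher, with signals of 740.4, 723, 849 and 984 under L, 138, 305, 537 and 656 under C, and 254, 759, 366 and 886 under L3, and the log2 difference was 0.98 (SE 0.41). L3 replicates 2 and 4 lay within the L range. The value was 0.17 over the 6 arrays of lower spike-in signal and 0.76 with that signal as a covariate. Lists of endothelium (22), cilium (17) and blood (9) genes had 0 members at an unadjusted p under 0.05 in limma and medians of −0.05 to 0.01.

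The lists of genes that the study named were chosen by it on these same arrays, so their counts are not independent evidence. The 26 lipid and energy genes among them had 13 higher, a median of 0.03 and 0 at an unadjusted p under 0.05. Of 18 ion channel and transport genes 10 were higher, with SLC17A6 lower at an unadjusted p under 0.05 (5.56%, beside 1.96% of all genes). Of 40 signalling genes 23 were higher, with PTH2R higher at an unadjusted p under 0.05 (2.5%, beside 1.37%). Of 29 development and visual genes 12 were higher. At an unadjusted p under 0.05, TIMP3 and TULP2 were higher (6.9%, beside 1.37%). GATA4, a transcription factor of heart and gut, was lower (3.45%, beside 1.96%). TULP2, not among the 21 list members followed over the settings, had mean signals of 89.9 under L, 31.5 under C and 68.4 under L3. Its log2 difference was 0.89 (SE 0.41), with L minus L3 at 0.58. GATA4 signals were 69.6, 95.9, 109 and 127 under L, 269, 338, 193 and 132.9 under C, and 202, 526, 545 and 135 under L3. L3 replicates 2 and 3 were the highest, C replicate 4 and L3 replicate 4 lay near the L arrays, and the log2 difference was −1.21 (SE 0.42), or −0.36 over the 6 arrays of lower spike-in signal.

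The counts over all probe sets depended on single arrays. At an unadjusted p under 0.05 in limma, 1282 were higher and 1419 lower without L replicate 1, and 1389 higher and 1666 lower without L3 replicate 4, with 0 at an adjusted p under 0.05 in both. The 24 named probe sets kept their sign in every other setting that tested them, which their choice fixed where only arrays were left out. Over the 6 arrays of lower spike-in signal 18 of them were at an unadjusted p under 0.05, and PTH2R, ZNF419, ICAM1, MALL, SELENOH and ARMCX4 were not. With age as a covariate 23 were, HTR4 being the exception, and with the ACTB ratio as a covariate all 24 were.

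**Figure D4:**
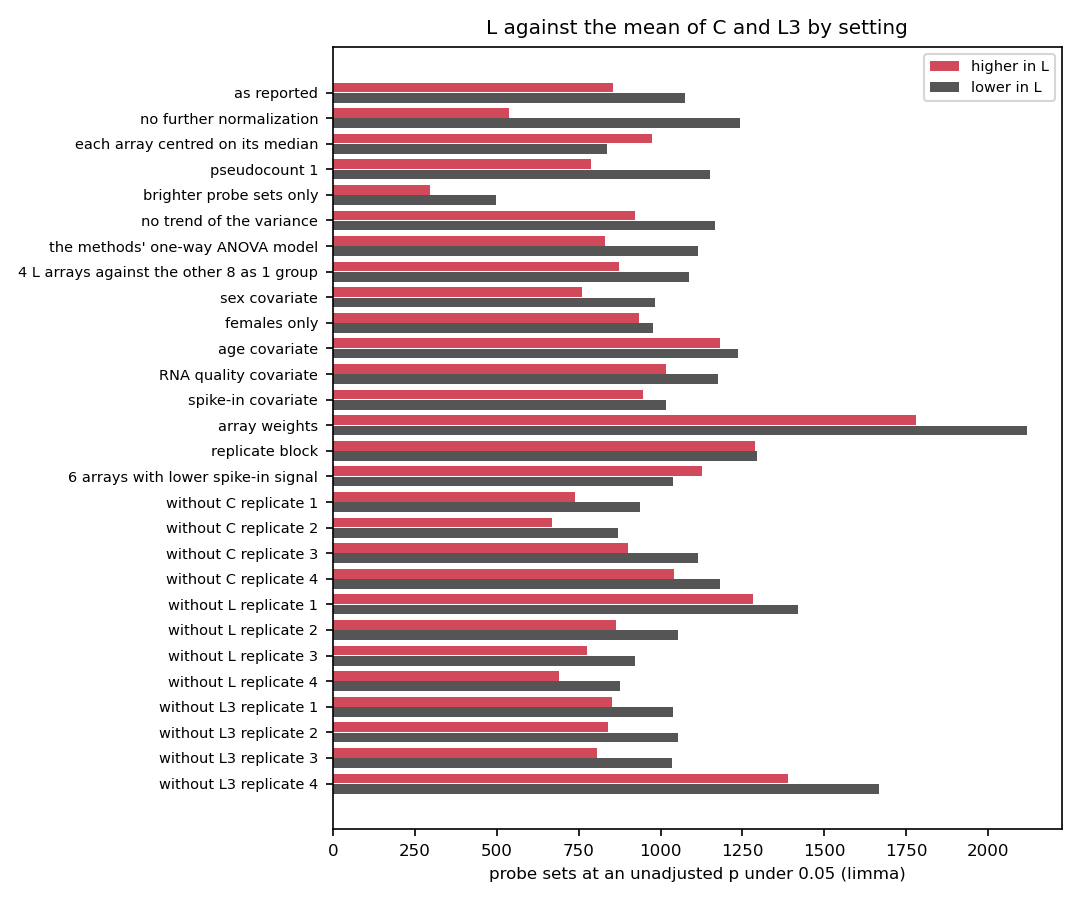
Number of probe sets at an unadjusted p under 0.05 (limma) that were higher (red) and lower (grey) in L than the mean of C and L3, for the reported fit and each other setting. The bars are longest with array weights (1779 higher and 2119 lower), and among single arrays left out the counts were highest without L3 replicate 4 (1389 and 1666).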

How the data were processed

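Total RNA of 12 animals, 1 array each, was compared between formulas that the titles of the samples name. The authors deposited 1 table of MAS5 signals, intensities on a linear scale that GCOS computed from the difference of perfect-match and mismatch probes. The methods describe RMA values, which the deposited intensities are not. After removal of 62 control probe sets, log2(signal + 16) was quantile normalized over the arrays. Limma 3.58.1 in R 4.3.3 fitted the 3 group means (9 residual degrees of freedom) with a variance trend, and the Benjamini-Hochberg adjustment over 54613 probe sets used a threshold of 0.05. Signals are printed as deposited, and differences are on the log2(signal + 16) scale, which understates changes of low signals. Precision rests on 4 arrays per group. Exact permutation tests were two-sided. By the platform annotation 41091 probe sets have 1 gene symbol, 1801 several and 11721 none. The contrast, the gene lists and the rule for naming genes were chosen with earlier results of these data known. The rule took the 12 with the smallest p of either side among probe sets with L arrays apart from the other 8, 1 symbol and a mean of 100 or more on the brighter side, passing over provisional symbols, and up to 2 members of a list at an unadjusted p under 0.05. Other genes are named after their values were seen, as examples of their list. A list used the probe set of each gene with the highest mean, and no set test was run. Each replicate is 1 animal. Numbers shared between formulas were not taken to pair arrays, since the labels give them no meaning. Residuals of same-numbered arrays correlated at −0.09 to 0.33 over 12 pairs. They were at 0.26 to 0.33 for replicate 4, 0.14 to 0.19 for replicate 1 and −0.09 to 0.06 for replicates 2 and 3. The ACTB ratio was highest on replicate 1 and lowest on replicate 4 of each formula, and a fit with a replicate block is among the alternatives. The fit was tested on simulated data. Alternatives were other scalings, pseudocount 1, brighter probe sets only, other variance models, sex, age, RNA quality, spike-in and replicate terms, array weights, females only and each array left out, and, chosen after seeing the data, the 6 arrays with lower spike-in signal, where L3 is 1 array assumed to vary like the others. Figures were drawn with matplotlib 3.10.9.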

Additional observations from a re-analysis of the deposited data

Results flagged for a closer look

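Of 261 checks of a group of 4 arrays, 13 found 1 array apart from the other 3 by Dixon's criterion, where about 1 in 20 is expected by chance, and 5 of the 13 were L replicate 1. Its mean correlation with the other arrays was 0.71, against 0.81 to 0.82 for the other L arrays. In log2 values L replicate 1 lay low for PNPLA2 (8.88, others 9.73 to 9.90). It also lay low for the list medians of glycolysis (−0.23, others 0.19 to 0.28), interneuron (−0.33, others 0.07 to 0.13) and astrocyte genes (−0.69, others 0.17 to 0.19), each relative to the mean of all arrays. C replicate 2 lay low for ZDHHC8BP (5.41, others 5.56 to 5.59), SLN (8.47, others 9.11 to 9.23) and SOX10 (8.82, others 9.82 to 9.92), and C replicate 1 for SEMA3A (4.99, others 7.45 to 7.87). L3 replicate 2 lay high for CAMK2A (12.64, others 12.23 to 12.29) and low for the excitatory list (−0.40, others 0.10 to 0.14). The sphingolipid list was low on L3 replicate 3 (−0.01, others 0.17 to 0.19) and the astrocyte list on L3 replicate 1 (−0.16, others 0.22 to 0.29).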

How the results depend on the processing

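All 24 named probe sets kept their sign in every alternative in which they were tested, and none of the 638 values for them reversed. Their choice required the L arrays to lie apart, so leaving out arrays or changing the variance model could not reverse a sign. At an unadjusted p under 0.05 there were 18 of the 24 over the 6 arrays of lower spike-in signal and 23 with age as a covariate. CEP76 and ZDHHC8BP passed an adjusted p under 0.05 from limma without a trend of the variance and in the methods' one-way variance model, 2 probe sets in each, with smallest adjusted p values of 0.0466 and 0.0175. In the other alternatives the count was 0. The count of 854 higher at an unadjusted p under 0.05 was 539 with no further normalization. With brighter probe sets only, the counts were 297 higher and 498 lower, out of 27306 tested. Array weights, which gave L replicate 1 the lowest weight (0.36), gave 1779 and 2119. The fit with a replicate block gave 1289 higher and 1295 lower, with 0 at an adjusted p under 0.05. With single arrays left out, 670 to 1389 were higher and 870 to 1666 lower. The counts with all L arrays above or below the others, 56 and 95, were 34 above with no further normalization and 26 and 50 with brighter probe sets only. With single arrays left out they were 84 to 290 above and 128 to 403 below, and fewer arrays need to lie apart there. Of 585 list medians under other settings, 26 moved by more than the spread between arrays. For single probe sets the median SE of 0.44 limits what 4 arrays per group can show.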

Other observations

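Among probe sets whose 4 L arrays lay apart from the other 8, 17 had a mean signal of 500 or more on the brighter side, a minimum chosen after the data were seen. Of these, 7 were higher and 10 lower in L, and SLN, SLC17A6, SELENOH and ARMC7 are described above. All probe sets that reach this minimum were not counted, so no share stands beside these numbers. PCDH17, a protocadherin of cell adhesion in the brain, had signals of 467, 593, 466 and 1056 under L, 377, 184, 299 and 319.6 under C, and 219.7, 232, 421 and 383 under L3. Its log2 difference was 0.98 (SE 0.33), and its 2 other probe sets were also higher in L, with 0.58 (SE 0.25) and 0.30 (SE 0.24). GLRB, the subunit of the glycine receptor that anchors it at synapses, had signals of 679, 663, 705 and 699.7 under L, 563, 418, 599 and 443 under C, and 528, 337, 369 and 306 under L3. The L arrays lay between 662 and 705, above all others, with a log2 difference of 0.65 (SE 0.24), and its other probe sets had 0.26 (SE 0.19) and −0.20 (SE 0.26).

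RBFOX1, a neuronal splicing regulator, had signals of 1779 ± 463 under L, 2673 ± 408 under C and 2162 ± 228 under L3 (SD, n = 4 each), and the log2 difference was −0.57 (SE 0.18), with −0.27 and −0.02 in its other probe sets. MEF2A, a transcription factor of neurons and muscle, had signals of 1450 ± 504 under L, 1963 ± 429.6 under C and 1760 ± 365 under L3 (SD, n = 4 each), and the log2 difference was −0.57 (SE 0.19), with 0.70, 0.49 and −0.64 in the others. CREM, a transcription factor that responds to cyclic AMP, had signals of 742 ± 96.5 under L, 577 ± 76.3 under C and 498 ± 94.2 under L3 (SD, n = 4 each), and the log2 difference was 0.45 (SE 0.22), and 4 of its 5 other probe sets were higher in L. ASAH1, the lysosomal acid ceramidase, had signals of 621 ± 85.8 under L, 376 ± 112 under C and 409 ± 109 under L3 (SD, n = 4 each), and the log2 difference was 0.72 (SE 0.28), with 0.58, −0.13, −0.19 and −0.34 in the others. For 9 of the 17 the L arrays lay apart in the deposited signals as well. Of the genes described, RBFOX1, MEF2A, ASAH1 and ARMC7 were not among these 9, and their L arrays lay apart only after quantile normalization. MEF2A had a deposited signal of 734 on L replicate 1 and 1487 to 1880 on the other L arrays. Its signals were 1660 to 2573 under C and 1302 to 2129 under L3. Of the 32 other probe sets of these genes 17 had the same sign, 1 of them at an unadjusted p under 0.05, and 0 of the opposite sign were.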
